A study of Mus musculus with 4 samples.

Results

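The large ribosomal subunit assembly factors examined here are 58 genes, chosen by symbol from a list of nucleolar, nuclear and late cytoplasmic proteins that build the large subunit. All 58 were present among the 24411 genes in the deposited tables, and all 58 passed the filter on low counts that left 13585 genes for testing. The data are RNA-seq of mouse morulae of the outbred ICR stock, made by in vitro fertilization and electroporated with siRNA at the 1-cell stage, at 3 hpi. The siPwp1 group (2 libraries) received siRNA against Pwp1 and the siControl group (2 libraries) received control siRNA, and embryos of both groups were cultured in KSOM with bovine serum albumin until 72 hpi. Each library was made with a SMART-Seq kit from polyadenylated RNA of 10 pooled embryos, so that differences between embryos within a library cannot be seen. The labels do not say whether replicates were separate cultures, and p-values therefore measure only the spread between these libraries.

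Ribosomal RNA of the large subunit is cut out of a long precursor in the nucleolus while many assembly factors bind, fold and modify it, and then leave in a set order. Helicases, GTPases and AAA ATPases drive these steps, an export adaptor carries the particle through the nuclear pore, and the last factors leave in the cytoplasm. In yeast, Pwp1 is itself a factor of early large-subunit precursors. Mouse embryos begin to make ribosomes in number during cleavage, when the nucleolus precursor bodies inherited from the oocyte turn into active nucleoli.

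The expected counts summed to 48765229 and 30356988 in siPwp1 replicates 1 and 2, and to 28981358 and 44985949 in siControl replicates 1 and 2. Pwp1 had 36.9 and 37.2 CPM (counts scaled to library size by TMM) in siPwp1 libraries, against 215 and 365 CPM in siControl libraries, with no overlap. Its log2 fold change, siPwp1 minus siControl, was -2.97 (SE 0.333), with an edgeR adjusted p = 0.22 and a DESeq2 adjusted p = 1.47e-12 over all genes. The 10 morula and early lineage markers all passed the filter and summed to 773 and 576 CPM in siPwp1 libraries, against 1317 and 607 CPM in siControl libraries. Among them Sox2 stood at 0.732 and 0.232 CPM in siPwp1 libraries, against 8.16 and 0.205 CPM in siControl libraries. In 9 of the 10 markers the log2 fold change was below 0 (median -0.597), where 49.9% of all genes tested were above 0. Both siPwp1 libraries lay below both siControl libraries for 2 of them, Nanog and Pou5f1, beside 14.1% of all genes. edgeR called 0 of the 10, beside 0% of all genes. Markers of the 2-cell stage summed to 89.1 and 117 CPM in siPwp1 libraries and to 9.93 and 14.5 CPM in siControl libraries. Blood markers summed to 44 and 44.7 CPM in siPwp1 libraries, against 12.3 and 34.8 CPM in siControl libraries, but Hba-a2 alone gave 39.3 and 39.1 CPM in siPwp1 libraries and 11.3 and 31.7 CPM in siControl libraries. Cd52 had 2.77 and 1.59 CPM in siPwp1 libraries, against 0.521 and 0.432 CPM in siControl libraries, without overlap (edgeR unadjusted p = 0.0322, adjusted p = 0.9998). Coro1a had 1.9 and 1.76 CPM in siPwp1 libraries, against 0.243 and 2.02 CPM in siControl libraries, and Hba-a1 had at most 1.96 CPM. Ptprc, the general leukocyte marker, had at most 0.332 CPM, and Hbb-bs was at 0 in all libraries. Cumulus and fibroblast markers were near 0 throughout, with 0 of 12 genes passing the filter and summed levels of at most 0.356 and 0.83 CPM, and sperm markers summed to at most 1.21 CPM.

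No assembly factor transcript passed the test for a difference between siPwp1 and siControl morulae. Of the 58 members, edgeR called 0 in either direction at an adjusted p under 0.05, beside a background of 0% of all 13585 genes tested, and every member had an adjusted p = 0.9998. No member had an unadjusted edgeR p under 0.05, where 2.66% of all genes did, and the smallest was 0.125 for Urb2. DESeq2 called 0 members as well, against 0.324% of all genes. The median log2 fold change of the members was 0.10, beside -0.001 over all genes tested, and the members ranged from -0.62 (Urb2) to 0.61 (Rrp1b). In 38 members the log2 fold change was above 0 and in 20 it was below 0, against 49.9% above 0 among all genes. Of the 50 members with a mean of at least 10 TPM (a share of transcripts, which takes length into account) 34 were above 0, beside 46.3% of the 4786 tested genes at that level.

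The 95% interval gives the spread around each fold change, gene by gene. It is not adjusted over genes, so it does not give the size of change that the adjusted test would call. Pwp1, with an interval of -3.76 to -2.18, had an edgeR adjusted p = 0.22. In 39 of the 58 members the interval lay inside a 2-fold change in either direction, beside 25.8% of all genes tested. Such intervals were more frequent at higher levels. Among all genes tested with a mean of at least 10 TPM the share was 60.1%, and of the 50 members at that level 38 had such an interval. The narrowest intervals belonged to Rpf2 (-0.60 to 0.45), Nsa2 (-0.41 to 0.65) and Nip7 (-0.48 to 0.59). The widest belonged to Npm3 (-1.29 to 1.34), Nle1 (-1.16 to 0.94) and Nvl (-0.72 to 1.3), which the libraries cannot place within 2-fold. A fold of at least 1.5 either way was reached by 2 members, Urb2 and Rrp1b, against 26.6% of all genes. Of the 50 members of at least 10 TPM it was reached by 1, Rrp1b, against 6.87% of genes at that level.

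**Figure D1:**
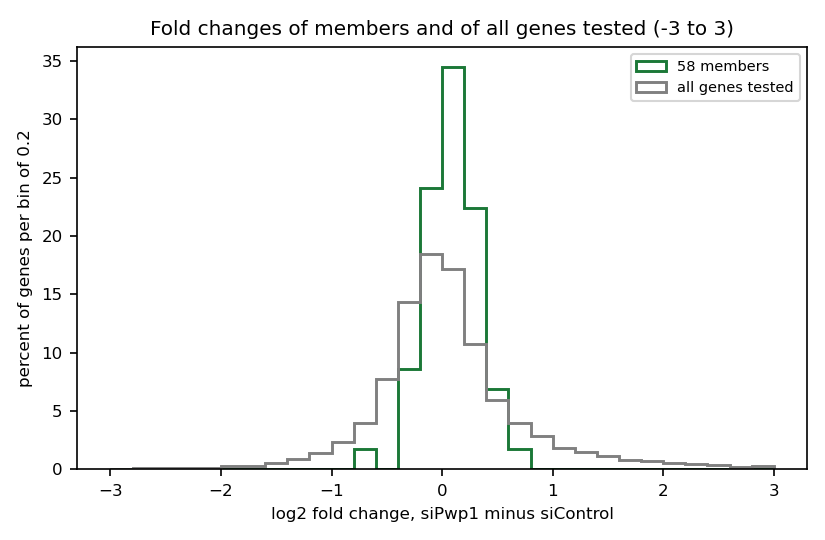
Share of genes in each 0.2-wide bin of log2 fold change (siPwp1 minus siControl) for the 58 members (green) and for all 13585 genes tested (grey). The members lie between -0.62 and 0.61, while the grey curve runs on past the ends of the plotted range of -3 to 3.

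**Figure D2:**
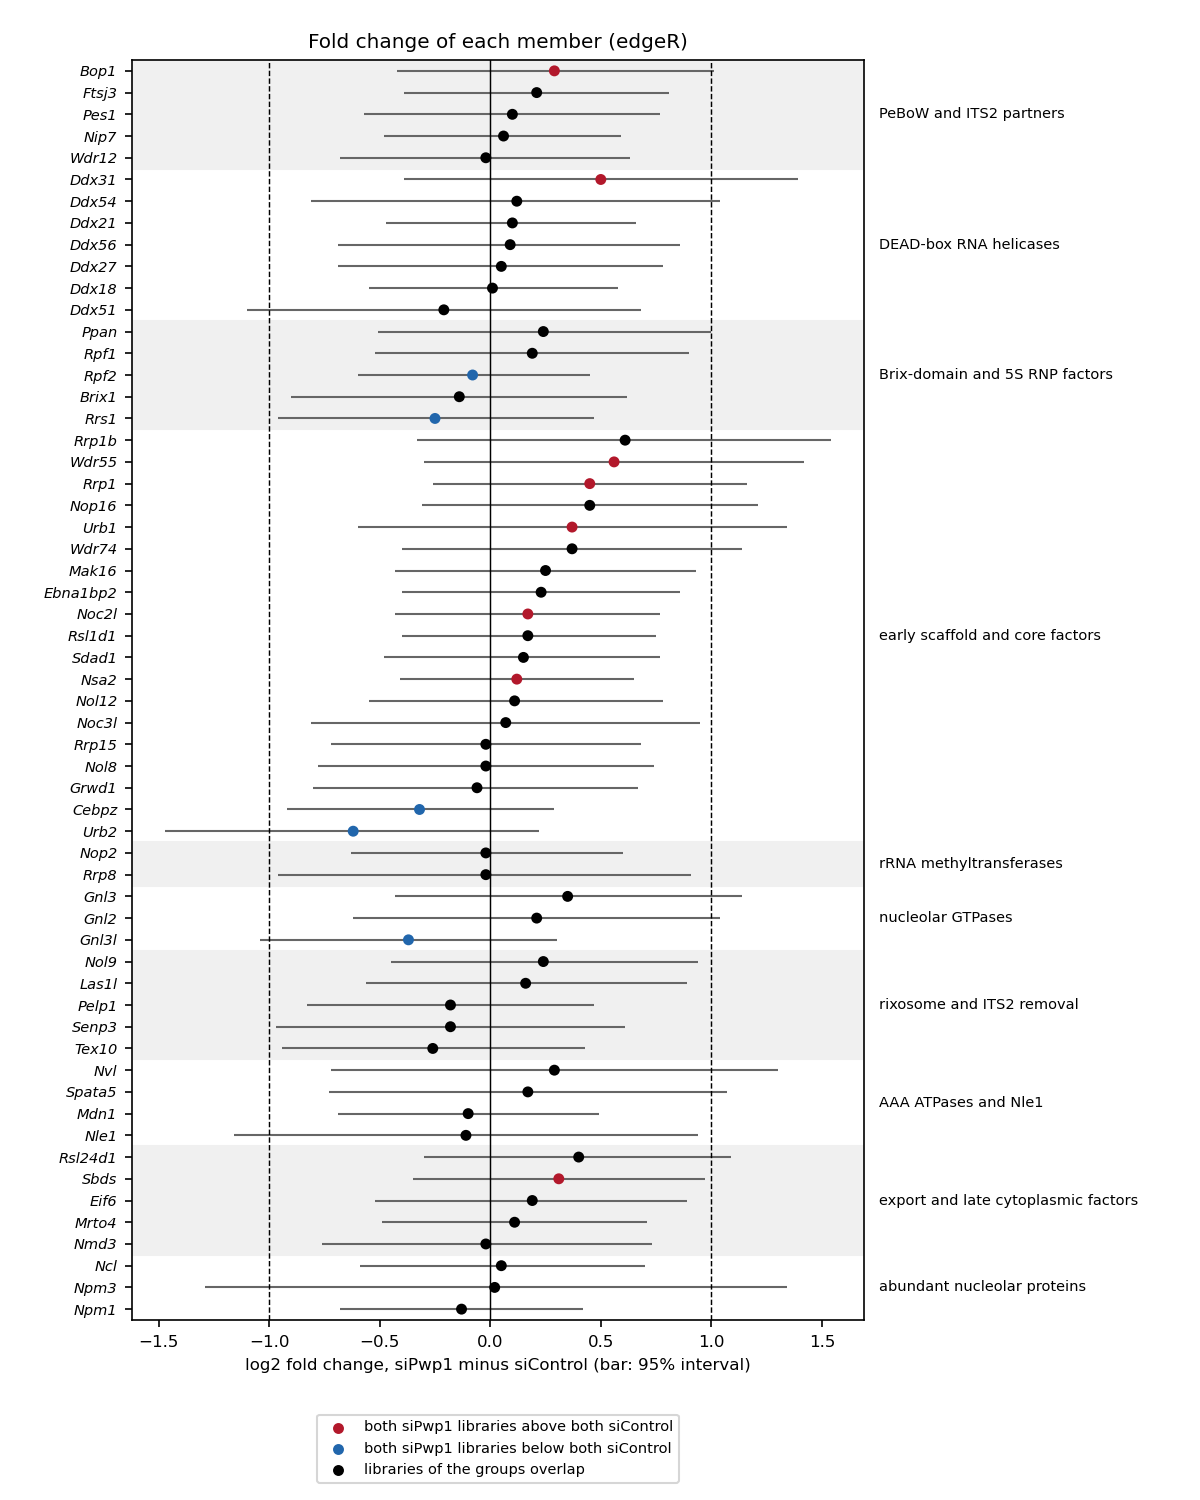
Log2 fold change of each member with its 95% interval from edgeR, grouped by role; dashed lines mark a 2-fold change. Every interval includes 0, with 8 members whose siPwp1 libraries both lay above the siControl libraries (red) and 5 whose siPwp1 libraries both lay below (blue).

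Both siPwp1 libraries lay above both siControl libraries for 8 members, beside 14.7% of all genes tested, and below both for 5 members, beside 14.1% of all genes. The members above were Bop1, Ddx31, Noc2l, Rrp1, Nsa2, Urb1, Wdr55 and Sbds. Those below were Rpf2, Rrs1, Cebpz, Urb2 and Gnl3l. Among the members of at least 10 TPM the counts were 6 above and 4 below, beside 9.95% and 15.5% of genes at that level. Neither count stood out from its background, and in 51 of 58 members the libraries of at least 1 group differed from each other by more than the group means did.

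The members spanned a wide range of levels in the morula, from a mean of 1.21 TPM for Urb1 to 5474 TPM for Npm1 over the 4 libraries. Their median was 32 TPM, beside 3.98 TPM over all genes tested, and 20 members reached 100 TPM. Npm1, the nucleolar histone and ribosome chaperone nucleophosmin, ranked 12 among all 24411 genes by TPM. It alone gave 0.534% and 0.523% of all TPM in siPwp1 libraries, against 0.636% and 0.496% in siControl libraries. All 58 members together gave 1.16% and 1.32% of TPM in siPwp1 libraries, against 1.14% and 1.27% in siControl libraries. In whole embryos, fewer cells that express a gene and less of its RNA per cell cannot be told apart.

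**Figure D3:**
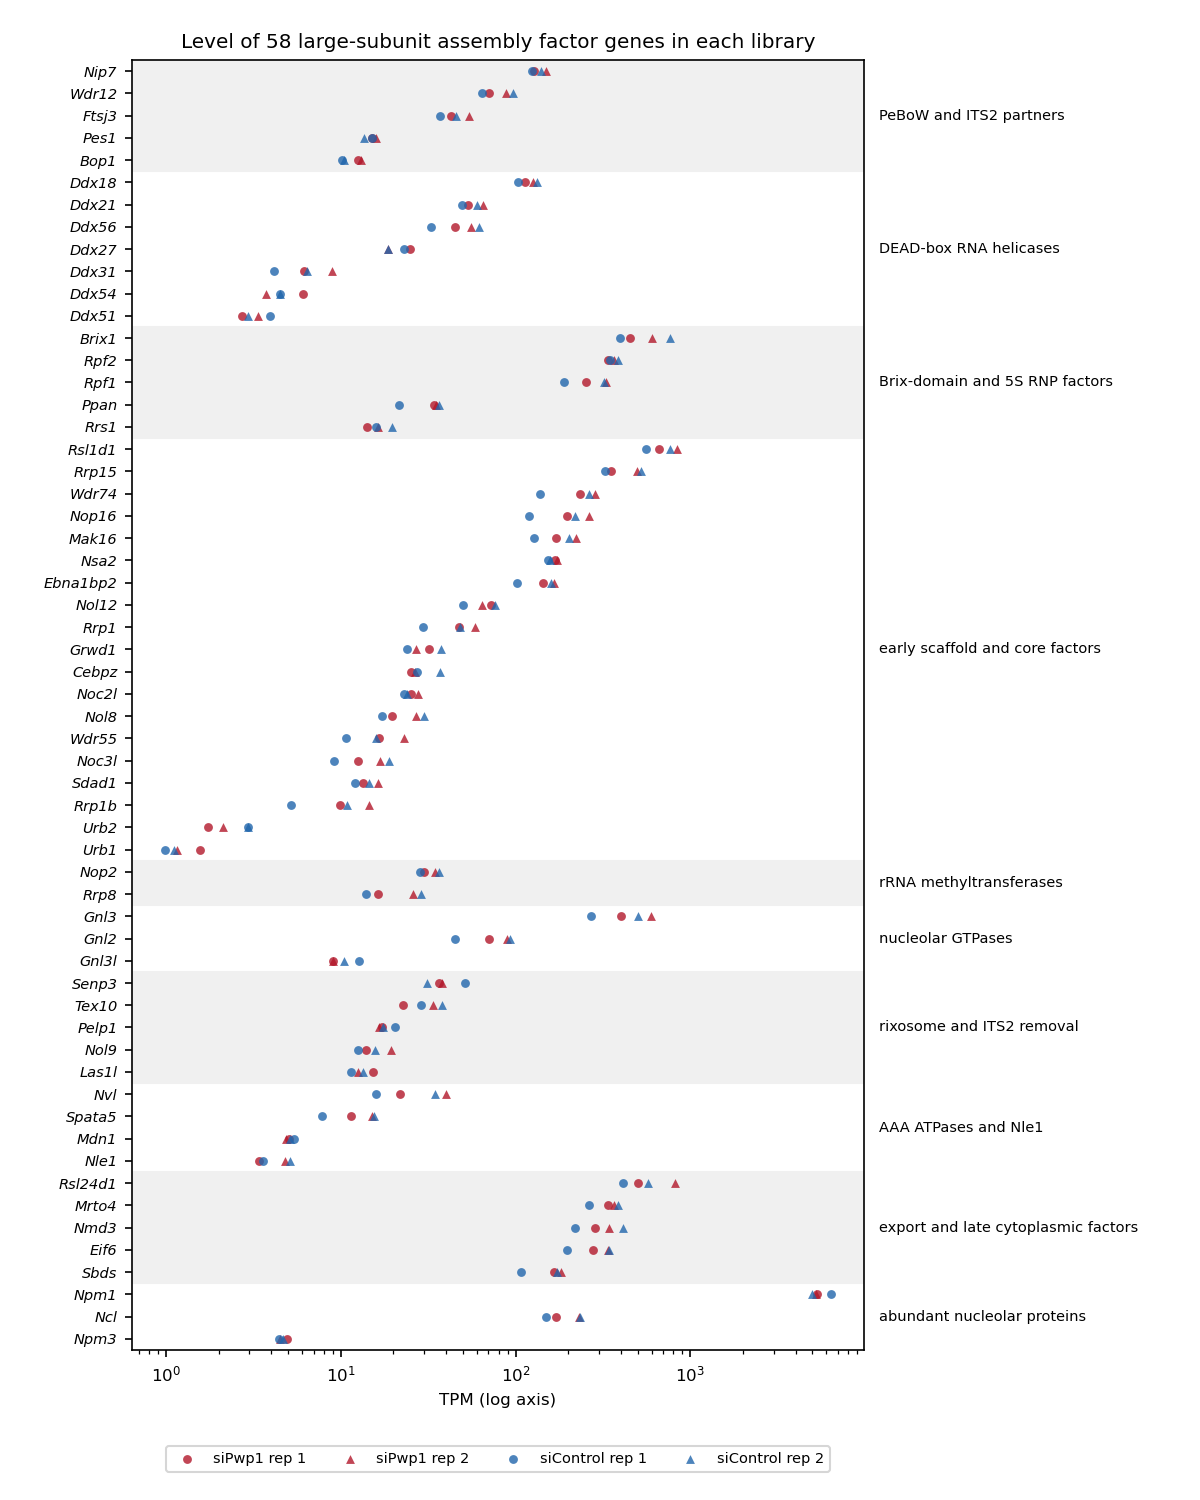
TPM of each member in each library on a log axis, grouped by role and ordered by level within a role (red, siPwp1; blue, siControl; circles, replicate 1; triangles, replicate 2). Levels differ more between members than between libraries, and for many members the triangles lie to the right of the circles.

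Promoter sequence is a feature that the choice of members did not use, and 47 of the 58 members had a promoter of 300 bases (250 before the start site and 50 after it) in the RefSeq table for GRCm38.p6. Of these 47, 22 held CCGGAAG, the core that ETS factors bind, on either strand (46.8%), beside 19.2% of 10314 genes tested and 9.93% of all 27025 genes in the table. The E-box CACGTG, bound by MYC and related factors, was in 10 members (21.3%), beside 11.5% of genes tested and 8.09% of all. ATGGCG, the core of the YY1 motif, was in 16 members (34%), against 17.2% and 10.2%, and the E-box variant CACGCG in 15 (31.9%), against 19.5% and 10.5%. The GC box GGGCGG was in 36 members (76.6%), against 66.3% and 38.2%, and TGCGCA, a short string searched for NRF1, in 11 (23.4%), against 15.7% and 8.79%. The longer palindrome searched for NRF1, which does not contain TGCGCA, was in 0 members (0%), against 2.28% and 1.07%. A longer form of the YY1 motif was in 2 members (4.26%), against 1.75% and 0.755%, and CTCGCGAGA was in 1 (2.13%), against 1.68% and 0.762%. CCAAT was in 10 members (21.3%), fewer than the 43.5% of genes tested and 41.1% of all, and TATAAA in 5 (10.6%), against 9.18% and 15.7%. ACTACAA was in 2 members (4.26%), against 4.72% and 3.78%. Each motif was searched on both strands, and matches of different motifs can overlap. The median number of CG pairs was 24 in member promoters, 20 in those of genes tested and 7 in all. A match is a run of letters and not a bound site. Members were also at higher levels than genes tested, with a median of 32 against 3.98 TPM. Motif shares among genes of like level or like CG count were not computed.

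The 100 bases before the start site are shown for the 9 members with the fullest account below that had an entry in the table, so that promoters with and without these letters can be seen beside the levels. They read 5′ to 3′ on the gene's strand, with coordinates on GRCm38.p6 and with CACGTG and CCGGAAG (or its reverse complement CTTCCGG) in capitals.
Brix1 (chr15:10485938-10486037, minus strand): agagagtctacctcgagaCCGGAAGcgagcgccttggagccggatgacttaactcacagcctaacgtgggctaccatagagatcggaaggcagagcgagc
Ddx31 (chr2:28840306-28840405, plus strand): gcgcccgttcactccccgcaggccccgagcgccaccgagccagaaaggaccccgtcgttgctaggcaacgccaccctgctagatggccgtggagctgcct
Gnl3 (chr14:31019132-31019231, minus strand): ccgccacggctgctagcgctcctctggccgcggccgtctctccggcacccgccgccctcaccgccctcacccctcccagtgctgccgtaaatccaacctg
Nop2 (chr6:125131783-125131882, plus strand): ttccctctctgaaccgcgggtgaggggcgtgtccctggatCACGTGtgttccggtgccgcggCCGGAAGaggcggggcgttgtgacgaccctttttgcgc
Nvl (chr1:181144205-181144304, minus strand): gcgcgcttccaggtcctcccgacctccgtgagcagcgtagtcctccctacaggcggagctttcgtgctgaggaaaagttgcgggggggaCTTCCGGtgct
Rsl1d1 (chr16:11203293-11203392, minus strand): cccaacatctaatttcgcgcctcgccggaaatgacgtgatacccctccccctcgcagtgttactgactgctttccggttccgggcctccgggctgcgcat
Rsl24d1 (chr9:73113369-73113468, plus strand): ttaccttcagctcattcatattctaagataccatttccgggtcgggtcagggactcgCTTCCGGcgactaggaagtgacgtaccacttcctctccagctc
Tex10 (chr4:48473464-48473563, minus strand): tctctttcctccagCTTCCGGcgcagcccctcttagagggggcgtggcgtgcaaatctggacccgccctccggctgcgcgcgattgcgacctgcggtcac
Urb2 (chr8:124021397-124021496, plus strand): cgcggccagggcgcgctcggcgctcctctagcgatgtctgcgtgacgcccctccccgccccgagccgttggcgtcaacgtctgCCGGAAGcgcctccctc
Nop2 held both motifs, with CACGTG beginning 60 and CCGGAAG beginning 38 bases before the start. Brix1, Nvl, Rsl24d1, Tex10 and Urb2 each held CCGGAAG or its complement in the part shown. Ddx31 and Gnl3 held neither motif in the 300 bases, and Rsl1d1 held CCGGAAG farther out, beginning 227 bases before the start. Tex10 also held CACGTG across the start site itself, beginning 3 bases before it. Bop1, Rrs1, Gnl3l and Npm1 had no entry.

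The PeBoW complex of Bop1, Pes1 and Wdr12 (named Erb1, Nop7 and Ytm1 in yeast) is needed to process the spacer ITS2. Bop1 had 27.3 and 27.3 CPM in siPwp1 libraries, against 22.7 and 21.8 CPM in siControl libraries. The groups did not overlap, and the log2 fold change was 0.29 (SE 0.302, 95% interval -0.42 to 1.01). Pes1 had 15.1 and 15.9 TPM in siPwp1 libraries and 15 and 13.5 TPM in siControl libraries. Wdr12 was the most abundant of the trio, at 70.3 and 88.3 TPM in siPwp1 libraries and 63.9 and 97 TPM in siControl libraries. Its TPM was 5.63 and 6.8 times that of Bop1 in siPwp1 libraries, against 6.33 and 9.29 times in siControl libraries. Nip7, a partner in pre-rRNA processing, and Ftsj3, the counterpart of the yeast rRNA methyltransferase Spb1, had log2 fold changes of 0.06 and 0.21. Bop1 shares exon sequence positions with Mroh1 on the other strand and Wdr12 with Carf, and the strand setting of the counts is not given in the sources used here.

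DEAD-box RNA helicases open and remodel pre-rRNA, and the log2 fold changes of the 7 members had a median of 0.09 (range -0.21 to 0.50). Ddx31, counterpart of yeast Dbp7, had 18.6 and 26 CPM in siPwp1 libraries, against 12.9 and 18.5 CPM in siControl libraries. The groups did not overlap, although siPwp1 replicate 1 was only just above siControl replicate 2, and the log2 fold change was 0.50 (SE 0.375, 95% interval -0.39 to 1.39). The 2 most abundant helicases, Ddx18 (Has1 in yeast) and Ddx21, which also acts in transcription, had log2 fold changes of 0.01 and 0.10. Their intervals were -0.55 to 0.58 and -0.47 to 0.66. Ddx54 stood at 22 and 13 CPM in siPwp1 libraries and at 16.7 and 15.6 CPM in siControl libraries, so the siPwp1 libraries enclosed the others. Ddx27, Ddx51 and Ddx56 also overlapped between groups.

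Brix-domain proteins bind early precursors, and Rpf2 with Rrs1 brings in the 5S RNP, the particle of 5S rRNA with its ribosomal proteins. Rrs1 had 24.9 and 27.6 CPM in siPwp1 libraries, against 29 and 33.2 CPM in siControl libraries. The groups did not overlap, with a log2 fold change of -0.25 (SE 0.299, 95% interval -0.96 to 0.47). Rpf2 too did not overlap, at 406 and 422 CPM in siPwp1 libraries and 431 and 443 CPM in siControl libraries, but the difference was small (log2 fold change -0.08, 95% interval -0.60 to 0.45). Although the partners act together, the TPM of Rpf2 was 23.8 and 22.5 times that of Rrs1 in siPwp1 libraries, against 21.7 and 19.5 times in siControl libraries. Brix1 had 1069 and 1372 CPM in siPwp1 libraries, against 965 and 1720 CPM in siControl libraries. The siControl libraries enclosed the siPwp1 libraries (log2 fold change -0.14, SE 0.32, 95% interval -0.90 to 0.62), and its value was 0.33 without siControl replicate 2. Ebna1bp2, counterpart of yeast Ebp2 and a partner of Brix1, had 383 and 423 CPM in siPwp1 libraries, against 281 and 406 CPM in siControl libraries. Ppan and Rpf1 had log2 fold changes of 0.24 and 0.19, with overlap.

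Early scaffold and core factors formed the largest group, with 19 members and a median log2 fold change of 0.17. Of these, 14 were above 0, beside 49.9% of all genes tested. Without siControl replicate 1, Noc3l (-0.33), Nol12 (-0.13), Ebna1bp2 (-0.03), Mak16 (-0.02) and Rsl1d1 (-0.0031) were below 0 as well. The other members of the group kept their sign. Urb2, which in yeast works in a complex of the earliest precursors, had 9.48 and 11.1 CPM in siPwp1 libraries, against 16.4 and 15.3 CPM in siControl libraries. This was the member with the lowest log2 fold change (-0.62, SE 0.357, 95% interval -1.47 to 0.22) and with both siPwp1 libraries well below the others. Urb2 lies on chromosome 8 from 124021508 to 124048505 (plus strand, GRCm38), with up to 10 exons in a transcript. Its partner Urb1 was at 11 and 7.84 CPM in siPwp1 libraries and at 7.11 and 7.44 CPM in siControl libraries (log2 fold change 0.37, 95% interval -0.60 to 1.34). In TPM Urb2 was thus 1.11 and 1.82 times Urb1 in siPwp1 libraries, against 2.96 and 2.65 times in siControl libraries.

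Rrp1 and Rrp1b are mammalian relatives of 1 yeast protein, which acts with Nsa1 (Wdr74), Mak16 and Rpf1. Rrp1 had 82.1 and 97.4 CPM in siPwp1 libraries, against 52.6 and 78.6 CPM in siControl libraries (log2 fold change 0.45, 95% interval -0.26 to 1.16), with no overlap. Rrp1b had 44.3 and 62.8 CPM in siPwp1 libraries, against 23.9 and 46.4 CPM in siControl libraries, and here the groups overlapped. Its log2 fold change of 0.61 was the highest of all members (SE 0.394, 95% interval -0.33 to 1.54). Wdr74 had 217 and 255 CPM in siPwp1 libraries and 132 and 233 CPM in siControl libraries, and Mak16 had 269 and 338 CPM against 205 and 305 CPM in the same order of groups. For each of these genes siControl replicate 1 was the lowest library. Nop16, another early factor, showed the same order, at 287 and 368 CPM in siPwp1 libraries and 178 and 302 CPM in siControl libraries.

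In yeast the Noc proteins escort precursors out of the nucleolus, and none of the mouse counterparts passed the test. Noc2l had 63.1 and 66.8 CPM in siPwp1 libraries, against 58.8 and 56.7 CPM in siControl libraries. Cebpz, counterpart of yeast Noc1, had 95 and 96.5 CPM in siPwp1 libraries, against 105 and 133 CPM in siControl libraries (log2 fold change -0.32, SE 0.255, 95% interval -0.92 to 0.29). Noc2l thus lay above and Cebpz below the siControl libraries without overlap, while Noc3l overlapped, and the differences between these fold changes were not tested. Rsl1d1, an abundant nucleolar protein gene, had 1036 and 1249.8 CPM in siPwp1 libraries, against 892 and 1133 CPM in siControl libraries (log2 fold change 0.17, SE 0.24, 95% interval -0.40 to 0.75). Nsa2 and Wdr55 were the remaining members of the group without overlap, both above, with log2 fold changes of 0.12 and 0.56. Wdr55 overlaps Dnd1 on the other strand, as Cebpz does Cebpzos, Noc2l Samd11, Nsa2 Gfm2 and Fam169a, Mak16 Tti2 and Rrp1b Hsf2bp. In the role groups that follow, Rrp8 overlaps Ilk in this way, Gnl2 Dnali1, Tex10 Invs, Nle1 Fndc8 and Spata5 Nudt6.

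The rRNA methyltransferases had log2 fold changes near 0. Nop2, which methylates a cytosine of the large-subunit rRNA, had 69.9 and 77.4 CPM in siPwp1 libraries, against 68 and 81.1 CPM in siControl libraries (log2 fold change -0.02, SE 0.26, 95% interval -0.63 to 0.60). The siControl libraries enclosed the siPwp1 libraries. Rrp8, an adenosine methyltransferase, likewise had a log2 fold change of -0.02, with a difference between replicate numbers far larger than that: 41.7 and 64 CPM in siPwp1 libraries and 37 and 70.4 CPM in siControl libraries.

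Among the nucleolar GTPases the relatives Gnl3 and Gnl3l leaned in opposite directions. Gnl3, which encodes nucleostemin, known from stem and early embryonic cells, had 659 and 937 CPM in siPwp1 libraries, against 456 and 792 CPM in siControl libraries. Replicate 2 was above replicate 1 in both groups, and the groups overlapped (log2 fold change 0.35, SE 0.332, 95% interval -0.43 to 1.14). Without siControl replicate 1 the log2 fold change of Gnl3 was -0.0051. Gnl3l had 41.2 and 39.5 CPM in siPwp1 libraries, against 59.2 and 45.2 CPM in siControl libraries, without overlap (log2 fold change -0.37, SE 0.282, 95% interval -1.04 to 0.30). Neither passed the test, and the difference between their fold changes was not tested. Gnl3 shares exon positions with Pbrm1 on the other strand and holds Snord19 and Snord69, while Gnl3l overlaps no gene. Gnl2, which acts late in the nucleus, had a log2 fold change of 0.21.

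The rixosome trims the ITS2 remnant, with the nuclease Las1l, the kinase Nol9, the scaffold proteins Pelp1 and Tex10, and the SUMO protease Senp3. All 5 overlapped between groups, and their median log2 fold change was -0.18, the lowest of the role groups. That lean rested on siControl replicate 1. Without it the values were 0.09 for Las1l, 0.10 for Nol9, -0.01 for Pelp1, 0.28 for Senp3 and -0.41 for Tex10. Tex10 had 66.1 and 94.2 CPM in siPwp1 libraries, against 86.3 and 105 CPM in siControl libraries (log2 fold change -0.26, SE 0.289, 95% interval -0.94 to 0.43). Senp3 had 71.4 and 71.5 CPM in siPwp1 libraries, against 103 and 58.2 CPM in siControl libraries, so the siControl libraries alone set its spread. Las1l, Nol9 and Pelp1 had log2 fold changes of 0.16, 0.24 and -0.18.

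AAA ATPases pull factors off the particle. Nvl, which removes Wdr74, had 60.5 and 106 CPM in siPwp1 libraries, against 45 and 90.8 CPM in siControl libraries. The replicates of each group lay farther apart than the groups did (log2 fold change 0.29, SE 0.426, 95% interval -0.72 to 1.3). Leaving out siControl replicate 1 gave -0.15, and leaving out siControl replicate 2 gave 0.87. The giant ATPase Mdn1, which releases Wdr12 and the rixosome, had 88.3 and 81.4 CPM in siPwp1 libraries and 97 and 85.2 CPM in siControl libraries. Despite these counts its level per length was only 4.83 to 5.4 TPM, in transcripts with up to 102 exons. Its binding partner Nle1 stood at 3.39 to 5.12 TPM. Spata5, which acts on Rsl24d1 in the cytoplasm, had a log2 fold change of 0.17 with overlap.

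For the 5 export and late factors the log2 fold changes had a median of 0.19. Rsl24d1 had 622 and 972 CPM in siPwp1 libraries, against 531 and 679.6 CPM in siControl libraries. Replicates again differed within a group, and siPwp1 replicate 1 lay between the siControl libraries (log2 fold change 0.40, SE 0.292, 95% interval -0.30 to 1.09). Sbds, the release factor altered in Shwachman-Diamond syndrome in humans, had 199.5 and 211 CPM in siPwp1 libraries, against 133 and 198 CPM in siControl libraries. Its siPwp1 replicate 1 exceeded siControl replicate 2 by little (log2 fold change 0.31, 95% interval -0.35 to 0.97). Eif6, which Sbds helps to release from the subunit, had 339 and 396 CPM in siPwp1 libraries and 247 and 399 CPM in siControl libraries, with overlap. The export adaptor Nmd3 and the placeholder protein gene Mrto4 had log2 fold changes of -0.02 and 0.11. Without siControl replicate 1 the values were -0.38 for Nmd3, -0.13 for Eif6, -0.11 for Mrto4, 0.04 for Sbds and 0.21 for Rsl24d1.

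Of the abundant nucleolar proteins, Npm1 had 5862 and 5519 CPM in siPwp1 libraries, against 7255 and 5213 CPM in siControl libraries. The siControl libraries enclosed the others (log2 fold change -0.13, SE 0.232, 95% interval -0.68 to 0.42), and the value was 0.11 without siControl replicate 1. Npm1 was highest in siControl replicate 1, the library in which most members were lowest. Ncl, nucleolin, had 1341 and 1751 CPM in siPwp1 libraries and 1214 and 1764 CPM in siControl libraries (log2 fold change 0.05, 95% interval -0.59 to 0.70). Npm3, a relative of Npm1, stood at only 4.95 and 4.49 TPM in siPwp1 libraries and 4.43 and 4.69 TPM in siControl libraries. The files list a pseudogene of Npm3, so the split of reads between the pair is uncertain.

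The libraries differed more within siControl than between the group means for 46 of 58 members, and more within siPwp1 for 36. Replicate 2 was above replicate 1 for 45 of 58 members in siPwp1, beside 49.9% of all genes tested, and for 44 members in siControl, beside 48.7%. The median log2 difference, replicate 2 minus replicate 1, was 0.22 in siPwp1 and 0.36 in siControl for the members. Over all genes it was 0 in siPwp1 and -0.02 in siControl. For 38 members siControl replicate 1 was the lowest of the 4 libraries, beside 30% of all genes tested. Among the 50 members of at least 10 TPM it was the lowest for 36, beside 36.9% of genes at that level. Of those 50 members, 41 were higher in replicate 2 in siPwp1 and 41 in siControl, beside 54% and 56.5% of genes at that level. Apart from Npm1, the members summed to 6235 and 7919 TPM in siPwp1 replicates 1 and 2, and to 5059 and 7698 TPM in siControl replicates 1 and 2. Nvl, Rrp1b, Gnl2, Rrp8 and Noc3l had the widest differences from siControl replicate 1 up to siControl replicate 2, of at least 0.91 on the log2 scale.

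**Figure D4:**
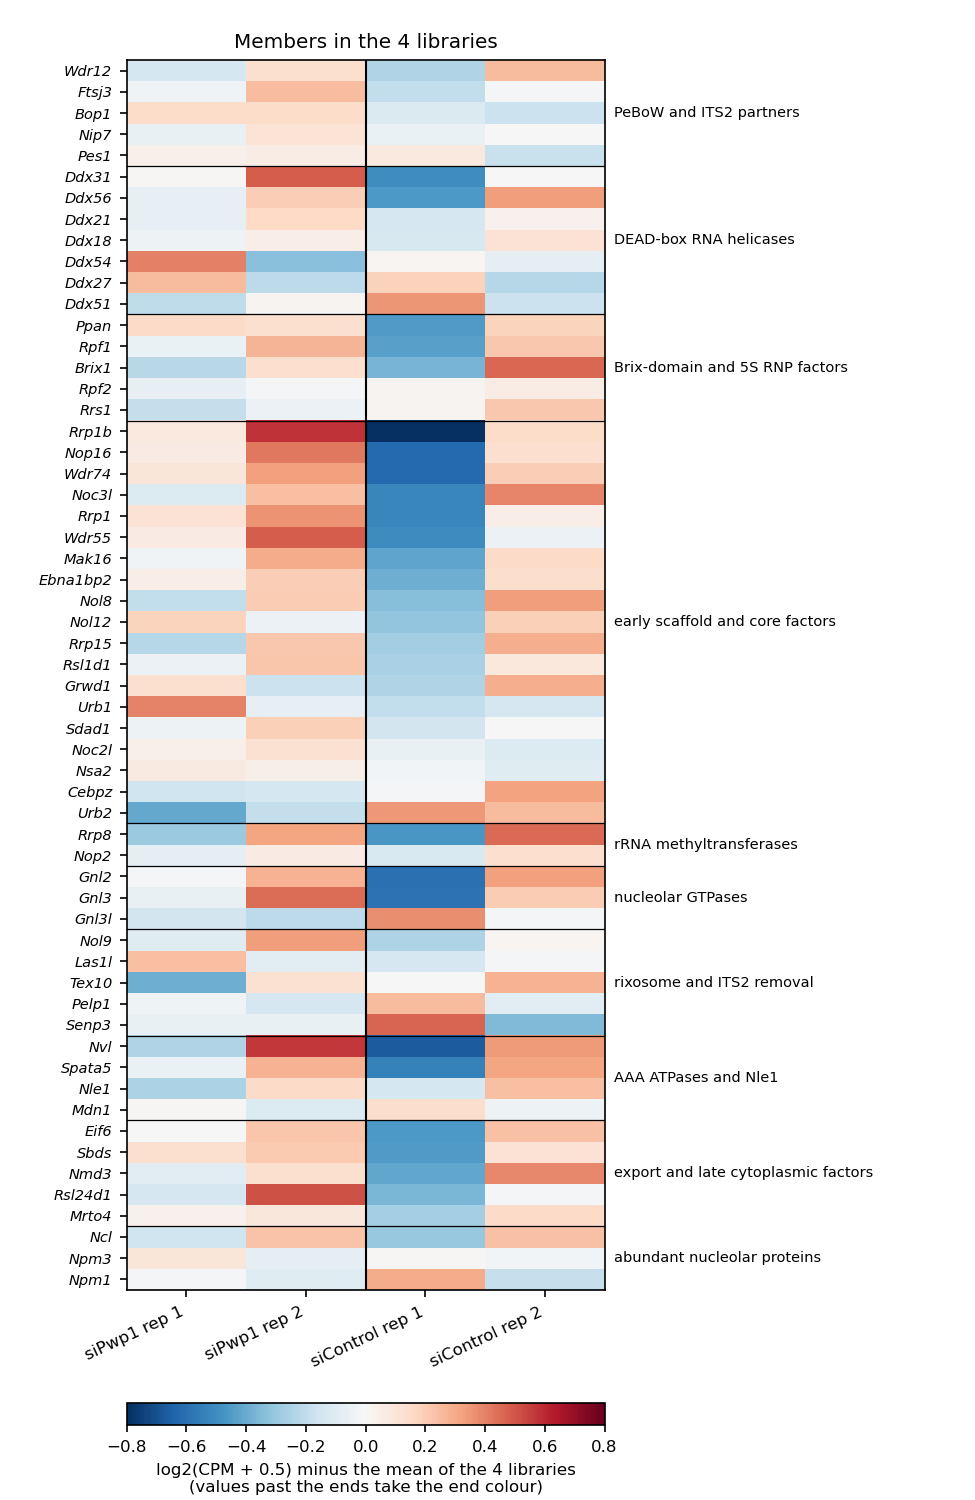
Level of each member in each library as log2(CPM + 0.5) minus the mean of its 4 libraries, grouped by role and ordered within a role by siControl replicate 1. Blue cells dominate the siControl replicate 1 column, where 38 of 58 members had their lowest value.

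**Figure D5:**
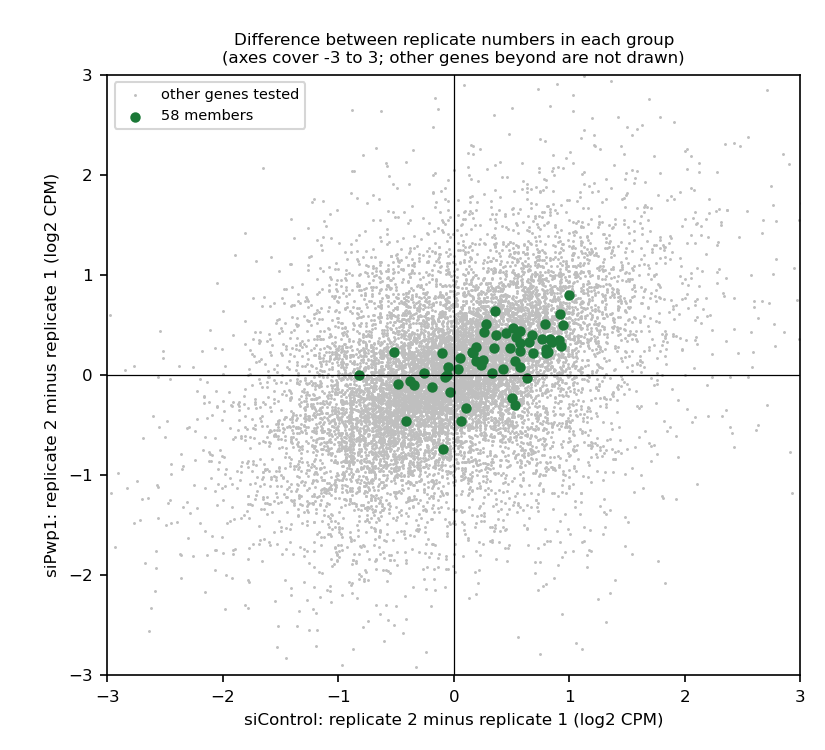
Replicate 2 minus replicate 1 in log2 CPM, in siControl (horizontal) and siPwp1 (vertical), for the 58 members (green) and the other genes tested (grey). Most members lie above and to the right of 0, with 45 above 0 in siPwp1 and 44 above 0 in siControl.

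The comparison of groups rests on which siControl library is used. Without siPwp1 replicate 1 the members' median log2 fold change was 0.17, and without siPwp1 replicate 2 it was 0.02. Without siControl replicate 1 it was -0.02, and without siControl replicate 2 it was 0.31. The counts of members without overlap moved with it. Without siControl replicate 2, 41 members lay wholly above the remaining siControl library and 11 below, beside 35.4% and 36% of all genes tested. Without siControl replicate 1, 11 lay above and 25 below, beside 30.4% and 30.2%. The counts were 23 above and 9 below without siPwp1 replicate 1 (34.2% and 33% of all genes), and 12 above and 9 below without siPwp1 replicate 2 (30.3% and 27%). In each of these fits edgeR called 0 members, and an unadjusted p under 0.05 was reached by 5 members without siControl replicate 2 (Rrp1b, Nop16, Gnl3, Wdr74 and Nvl) and by 0 members in the other fits. Those 5 are 8.62% of the members, near the 9.32% of all genes in the same fit. Each of these fits sets 2 libraries against 1, so the spread comes from the group that kept 2 libraries, and the lone library is assumed to vary like them. Some marker genes differed by replicate number as well. Krt8, with one of the widest differences, had 116 and 21.3 CPM in siPwp1 replicates 1 and 2, and 193 and 15.6 CPM in siControl replicates 1 and 2. Krt18, Gata3, Cdx2, Sox2, Cdh1 and Pou5f1 were also higher in replicate 1 in both groups. Tead4 was higher in replicate 2 in both groups, and Nanog and Tfap2c differed in direction between the groups. The oocyte markers summed to 9.36 and 22.3 CPM in siPwp1 replicates 1 and 2, and to 5.8 and 16.2 CPM in siControl replicates 1 and 2. Most of this difference was Zp3, with 3.56 and 16.3 CPM in siPwp1 and 3.23 and 10.3 CPM in siControl. In siPwp1, Gdf9, Nlrp5 and Mos were lower in replicate 2, while Bmp15 and Oosp1 were higher. In siControl, Mos was at 0 and the others were higher in replicate 2. The part of these markers in the members' levels was not tested.

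The use of alternative transcripts can be seen only through length. RSEM reports for each gene a mean transcript length weighted by the estimated use of its transcripts. Of the 58 members 44 have 1 RefSeq transcript in the files and 14 have more. The weighted length differed between libraries by at most 2.78%, in Nol9 (3706 and 3736 bases in siPwp1 libraries, against 3641 and 3742 bases in siControl libraries), and by at most 0.819% in any other member.

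Other genes of ribosome assembly also passed no test, where edgeR called 0% of all genes tested. Of 25 further large-subunit factors, edgeR called 0, with 0 at an unadjusted p under 0.05, beside 2.66% of all genes. DESeq2 called 0 of them, beside 0.324% of all genes, and their median log2 fold change was 0.19. Leaving out siControl replicate 1 gave a median of 0.055, and leaving out siControl replicate 2 gave 0.40. Both siPwp1 libraries lay above the siControl libraries for 7 of them, beside 14.7% of all genes tested, and below for 2, beside 14.1%. The smallest unadjusted p values belonged to Zfp622, Znhit3, Lsg1 and Zfp593. Zfp622 had 77.6 and 85.8 CPM in siPwp1 libraries, against 52.7 and 66.1 CPM in siControl libraries, and Lsg1, a GTPase of cytoplasmic maturation, had 112 and 153 CPM against 44.3 and 118 CPM in the same order of groups. Znhit3 had 709 and 1129 CPM in siPwp1 libraries and 609.8 and 706 CPM in siControl libraries. Rbm34, counterpart of yeast Nop12, had 73.5 and 70.6 CPM in siPwp1 libraries, against 95.2 and 79 CPM in siControl libraries. Rpl5 and Rpl11, the ribosomal proteins of the 5S RNP, overlapped between groups.

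The 16 genes of the exosome and of 3′ trimming had a median log2 fold change of 0.02, with 0 called by edgeR, 0 at an unadjusted p under 0.05 and 0 called by DESeq2. C1d, an exosome cofactor, had the smallest p among them, at 601 and 743 CPM in siPwp1 libraries and 523 and 515 CPM in siControl libraries. Among 54 small-subunit processing factors the median was 0.08. Again 0 were called by either tool and 0 had an unadjusted p under 0.05, beside the same shares of all genes. The siPwp1 libraries both lay above the siControl libraries for 5 of them, beside the same 14.7% of all genes, and below for 1, beside 14.1%. Without siControl replicate 1 the median was -0.15 for the exosome list and -0.037 for the small-subunit list, and without siControl replicate 2 it was 0.23 and 0.26. Leaving out siPwp1 replicate 2 gave 0.0032 for the exosome list and -0.073 for the small-subunit list, and leaving out siPwp1 replicate 1 gave 0.11 and 0.19. Imp3, with the smallest p there, had 77.1 and 117 CPM in siPwp1 libraries and 67.8 and 76.9 CPM in siControl libraries. The summed TPM of the small-subunit list was 4840.1 and 6175 in siPwp1 replicates 1 and 2, and 4352 and 5947 in siControl replicates 1 and 2, the same order of libraries as for the members without Npm1.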

How the data were processed

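Whole-embryo RNA-seq of 4 libraries was deposited as one RSEM gene table each. Per the submitters' processing notes STAR 2.7.10 and RSEM 1.3.3 were used with the mm10 build; for trimming, annotation release and strand setting, nothing is stated, and they count as not given in the sources used here. The deposited expected counts are RSEM estimates without normalization, per the file headers, and the deposited TPM and FPKM were scaled by the authors within a library, per the file headers. FPKM were not used.

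Expected counts were rounded to whole numbers, filtered with filterByExpr (minimum count 10) and scaled by TMM. The main test was quasi-likelihood edgeR (version 4.0.16, under R 4.3.3) on a model of group only. P-values are two-sided, with Benjamini-Hochberg adjustment over all 13585 genes and a threshold of 0.05. SEs were taken from the F statistic, dividing the size of the log2 fold change by its root, and 95% intervals use the moderated degrees of freedom. CPM are scaled by TMM, and 3 counts correspond to 0.0594 to 0.104 CPM, for counting error only. With 2 libraries a group, the smallest p of an exact permutation test is 0.333. DESeq2 1.42.0 and limma 3.58.1 on log2 TPM served as alternatives, and the test was tried on simulated counts.

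Full values were given for Pwp1, for members separated by at least 1.5-fold, for the member with the smallest p in each role group and for the 5 with the highest TPM; up to 4 genes were named from each other list. Members and lists were chosen with earlier results of these data known. Rpf2, Rrp1b, other members and Rbm34 named beyond this rule were chosen after their values were seen. Positions are from GENCODE M21 on GRCm38 and promoters from RefSeq on GRCm38.p6; start sites of the tables can differ.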

Additional observations from a re-analysis of the deposited data

How the results depend on the processing

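Among the alternatives run, edgeR, DESeq2 and limma each called 0 members: no filter on low counts, a filter of 5 CPM in 2 libraries, DESeq2 size factors, the DESeq2 Wald test, limma on log2(TPM + 1) or log2(TPM + 0.1), a replicate block, an adjusted p threshold of 0.1 and each library left out. The count over all genes, 0 in the fit by group, was 106 with no filter, 44 with the DESeq2 Wald test and 38 to 178 with 1 library left out. Pwp1 passed with no filter (log2 fold change -2.98) and with DESeq2 (-2.96). It did not pass at the threshold of 0.1 (edgeR adjusted p = 0.22), with the filter of 5 CPM (edgeR, 0.207) or with DESeq2 size factors (edgeR, 0.224). Nor did it pass with limma on log2(TPM + 1) (limma adjusted p = 0.335) or on log2(TPM + 0.1) (0.574). With 1 library left out its log2 fold change ran from -3.31 to -2.55. In the fits with 1 library left out, the spread comes from the group with 2 libraries, and the lone library is assumed to vary like them.

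With 1 library left out, members lying wholly above the other group numbered 11 to 41, beside 30.3% to 35.4% of all genes tested. Those below numbered 9 to 25, beside 27% to 36%. The count above was highest without siControl replicate 2, and the count below was highest without siControl replicate 1. Values near 0 changed sign. Nop2 was 0.02 with the filter of 5 CPM, 0.00069 with log2(TPM + 1), 0.00092 with log2(TPM + 0.1) and -0.15 to 0.10 with 1 library left out. In those last fits Brix1 ran from -0.51 to 0.33, Nvl from -0.17 to 0.87, Npm1 from -0.36 to 0.11, Rsl1d1 from -0.0031 to 0.35 and Gnl3 from -0.0051 to 0.79. Without a change of sign, Rsl24d1 ran from 0.038 to 0.68, Tex10 from -0.53 to -0.03, Ddx31 from 0.24 to 0.78 and Gnl3l from -0.56 to -0.18. In 23 of 58 members the sign held under every alternative with a fit, 15 above 0 and 8 below.

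The labels give the replicate numbers no meaning beyond the number. Across genes, replicate 2 minus replicate 1 correlated at 0.43 between the groups. With the replicate number as a block, edgeR called 80 genes, Pwp1 among them (log2 fold change -2.92), and 0 members, while 6 members had an unadjusted p under 0.05 (Rrp1b, Nop16, Gnl3, Rrp1, Rsl24d1 and Wdr74). Those 6 are 10.3% of the members, near the 9.48% of all genes in the same fit. Depth was lowest for Npm3, with 147 and 76 counts in siPwp1 libraries and 78 and 116 in siControl libraries, and its interval was the widest.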
